A study of Mus musculus with 4 samples.

Results

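The regions described here are the open chromatin sites and the H2A.Z sites of Uhrf1hepKO mouse liver. They were taken as every ATACseq peak and every H2A.Z ChIPseq peak called for that genotype on chromosomes 1 to 19, which gave 10636 ATACseq peaks and 46400 H2A.Z peaks, 57036 of the 120823 peaks in the 4 lists of the series. The mice were males on a C57Bl/6 background, 8 to 12 weeks old, fed a normal diet, with livers harvested in the morning. The Uhrf1hepKO mouse was Uhrf1-fl/fl;Alb:Cre, in which the albumin promoter drives Cre in hepatocytes, so other cells of the liver keep Uhrf1, and the WT mouse was Uhrf1-fl/fl. Each genotype had 1 library per assay, and the labels do not say whether both assays used the same liver, so no comparison here has a replicate and no p-value was computed. The percentages carry Wilson 95% intervals that cover counting error only, and the WT liver is given beside the Uhrf1hepKO liver as the control measured in the same way.

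UHRF1 binds hemimethylated DNA behind the replication fork and brings in DNMT1, so that DNA methylation is kept when hepatocytes divide. H2A.Z is a variant of histone H2A that is put into chromatin by the SRCAP and TIP60/EP400 complexes and is best known from the nucleosomes on either side of the nucleosome-free stretch at gene starts, where DNA methylation is low. ATACseq reads out where a transposase can reach DNA, which is mainly that nucleosome-free stretch, so at a gene start the assays are known to mark neighbouring bases. In whole liver, a site used strongly by few cells and a site used weakly by many cannot be told apart.

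The sequences below show what kind of DNA lay under the peaks. The first group holds the ATACseq peak of highest fold enrichment (reads over the caller's local background) in each class of distance to the nearest protein-coding transcription start site (TSS), with and without an overlapping H2A.Z peak. The peaks are named by that nearest gene. Oasl1 (chr5:114922448-114922591) overlapped H2A.Z and Lztfl1 (chr9:123717626-123717815) did not, both under 1 kb from a TSS. Ifna13 (chr4:88641101-88641291), 1 to 5 kb away, overlapped H2A.Z, and the peak of that class without overlap is not reported here. Rab10 (chr12:3109871-3110113) overlapped H2A.Z and Abcb11 (chr2:69355539-69355665) did not, both over 5 kb away. All are the plus strand of GRCm38 from the RefSeq FASTA, annotated UTR bases are left out, and capitals mark CpG dinucleotides, the target of the methylation that UHRF1 maintains.
Oasl1: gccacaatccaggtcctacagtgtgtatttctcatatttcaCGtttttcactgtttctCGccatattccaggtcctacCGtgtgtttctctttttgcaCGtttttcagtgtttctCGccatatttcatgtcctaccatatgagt
Lztfl1: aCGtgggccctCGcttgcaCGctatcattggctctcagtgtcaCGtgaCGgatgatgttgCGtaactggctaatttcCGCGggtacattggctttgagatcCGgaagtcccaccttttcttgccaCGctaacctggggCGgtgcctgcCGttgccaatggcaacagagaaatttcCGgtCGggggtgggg
Ifna13: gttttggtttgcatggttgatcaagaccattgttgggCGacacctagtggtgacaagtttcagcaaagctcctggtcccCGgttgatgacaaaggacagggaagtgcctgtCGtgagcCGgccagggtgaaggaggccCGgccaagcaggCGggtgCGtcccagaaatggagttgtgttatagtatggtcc
Rab10: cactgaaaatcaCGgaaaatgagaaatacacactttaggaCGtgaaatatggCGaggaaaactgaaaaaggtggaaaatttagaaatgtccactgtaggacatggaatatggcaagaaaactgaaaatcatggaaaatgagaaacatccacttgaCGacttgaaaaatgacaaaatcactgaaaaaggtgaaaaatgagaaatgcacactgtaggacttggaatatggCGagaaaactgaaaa
Abcb11: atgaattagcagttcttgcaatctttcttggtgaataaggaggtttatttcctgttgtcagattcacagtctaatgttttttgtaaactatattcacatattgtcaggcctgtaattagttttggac

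The second group holds promoter ATACseq peaks of named genes, chosen after their values were seen to set hepatocyte genes that had an ATACseq peak and no H2A.Z within 1 kb beside genes that had both. Alb (chr5:90460649-90460896) encodes albumin and Cebpa (chr7:35119058-35119292) a hepatocyte transcription factor, and both were open without H2A.Z. Ruvbl1 (chr6:88465277-88465408) encodes an ATPase of the H2A.Z exchange complexes and Trp53bp1 (chr2:121271408-121271570) a DNA repair protein, and both had the 2 kinds of peak.
Alb: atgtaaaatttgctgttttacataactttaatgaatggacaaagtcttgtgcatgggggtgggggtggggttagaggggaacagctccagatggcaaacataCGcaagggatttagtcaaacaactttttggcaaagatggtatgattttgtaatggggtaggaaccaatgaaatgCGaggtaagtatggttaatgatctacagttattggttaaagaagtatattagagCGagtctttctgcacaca
Cebpa: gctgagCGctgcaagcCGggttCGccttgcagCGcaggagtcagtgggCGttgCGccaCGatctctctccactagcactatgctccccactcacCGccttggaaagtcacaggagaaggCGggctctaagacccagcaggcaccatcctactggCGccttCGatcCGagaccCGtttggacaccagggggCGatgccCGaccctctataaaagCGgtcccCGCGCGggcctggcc
Ruvbl1: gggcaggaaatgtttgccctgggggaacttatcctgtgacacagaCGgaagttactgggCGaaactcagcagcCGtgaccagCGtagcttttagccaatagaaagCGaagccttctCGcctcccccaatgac
Trp53bp1: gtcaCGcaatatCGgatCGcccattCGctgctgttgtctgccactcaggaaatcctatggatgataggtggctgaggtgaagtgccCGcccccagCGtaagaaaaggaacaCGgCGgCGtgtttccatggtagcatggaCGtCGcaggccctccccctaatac

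Alb held 3 CpGs in 248 bases and Cebpa 19 in 235 bases, against 6 in 132 bases for Ruvbl1 and 11 in 163 bases for Trp53bp1. The Rab10 and Oasl1 peaks shared the letters AATATGGC, which stood 3 times in Rab10 and 2 times in Oasl1, counting both strands. Repeat-masked bases made up 100% of the Rab10 and 86.8% of the Oasl1 peak, so neither is typical DNA of its named gene.

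The lists were of unequal size and of narrow peaks. The median Uhrf1hepKO ATACseq peak was 207 bp wide with fold 4.05, and the list covered 0.119% of the sequenced bases. The median H2A.Z peak was 167 bp wide with fold 5.35, and that list covered 0.463%. Read depth is unknown, since the files hold peaks and not reads. Checked against cell type markers, the lists left a share of hepatocyte genes without any peak that was near that of all protein-coding genes. An H2A.Z summit stood at 10% (2.79 to 30.1) of hepatocyte markers, beside 45.4% of all genes. Markers of the other cell types had peaks less often than hepatocyte markers, in short lists. Of 20 hepatocyte markers, 12 (60%), among them Apoa1, Ttr and Cps1, had no peak of either kind within 1 kb of the TSS, beside 52.3% of all protein-coding genes. None of 11 Kupffer cell markers had a peak. Fcgr2b was the only one of 12 endothelial markers with a peak, Col1a1 the only one of 10 stellate cell markers, and Spp1 and Sox9 the only ones of 8 cholangiocyte markers.

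Open chromatin and H2A.Z met at the same bases in a minority of sites, and most often at gene starts. Sharing 1 bp counted as overlap, and 2918 of the Uhrf1hepKO ATACseq peaks met H2A.Z in this sense, 27.4% (26.6 to 28.3). Under 1 kb from a TSS the share was 43.3% (41.9 to 44.8, 1940 of 4477 peaks). From 1 to 5 kb it was 20.7% (17.96 to 23.8, 152 of 733), and over 5 kb it was 15.2% (14.3 to 16.2, 826 of 5426). The interval of the first class lay above those of the others. The order of the last 2 classes depended on the annotation, since counting the TSS of every transcript gave 13.7% from 1 to 5 kb and 14.2% over 5 kb. From the H2A.Z side, 7.33% (7.10 to 7.57) of peaks overlapped an ATACseq peak, with 14.7% under 1 kb, 4.37% from 1 to 5 kb and 3.51% over 5 kb.

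In the WT liver the same shares of ATACseq peaks were 35.7% of all and 50.1%, 25.8% and 22.4% by class. The Uhrf1hepKO share was lower in each class, and its interval lay below the WT interval for all peaks, under 1 kb and over 5 kb, where the WT intervals were 34.8 to 36.6, 48.7 to 51.5 and 21.3 to 23.6. From 1 to 5 kb the intervals met, since the WT interval was 22.6 to 29.3. With 1 library per assay and genotype, a genotype and a mouse cannot be told apart in these differences. The Uhrf1hepKO list also held fewer H2A.Z peaks, 46400 against 50665, and narrower ATACseq peaks, 207 against 232 bp in the median. When, in a check chosen after seeing the data, each ATACseq peak was replaced by 200 bp about its centre, the shares became 26.4% in Uhrf1hepKO and 32.1% in WT for all peaks, 38.5% and 41.9% under 1 kb, and 17.2% and 23.1% over 5 kb, so the gap under 1 kb narrowed most.

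**Figure D1:**
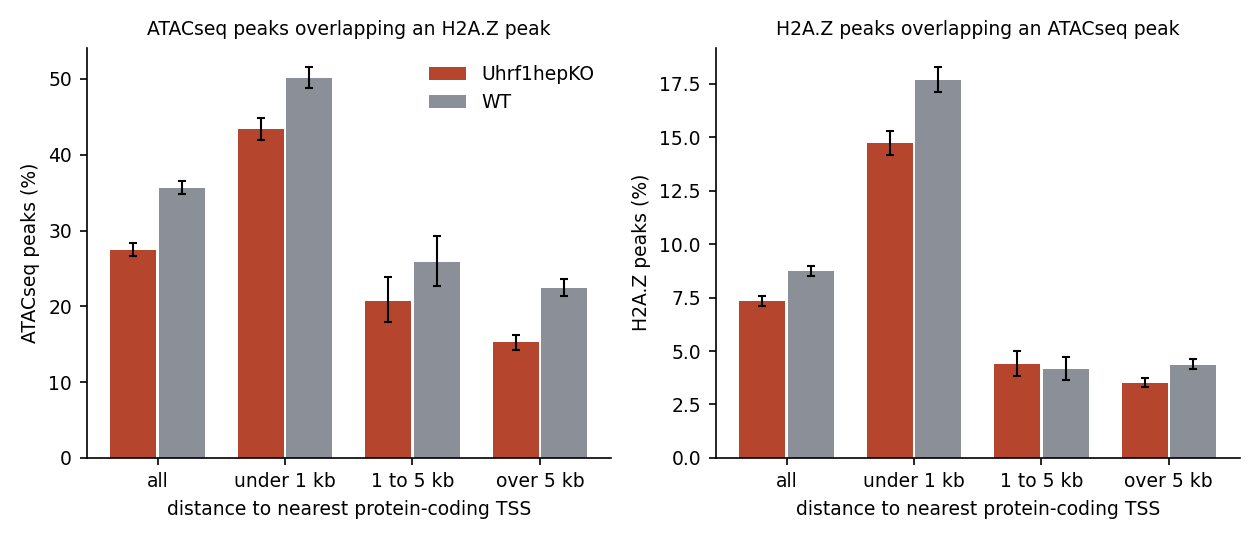
Share of ATACseq peaks overlapping an H2A.Z peak (left) and of H2A.Z peaks overlapping an ATACseq peak (right), in percent, for all peaks and by distance to the nearest protein-coding TSS, in Uhrf1hepKO and WT liver, 1 library per assay each. Bars are shares and error lines Wilson 95% intervals. Under 1 kb the ATACseq share was 43.3% in Uhrf1hepKO and 50.1% in WT, and over 5 kb it was 15.2% and 22.4%.

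Gene starts made up a larger share of the open sites than of the H2A.Z sites. Under 1 kb lay 42.1% (41.2 to 43.0) of Uhrf1hepKO ATACseq peaks and 33.2% (32.8 to 33.7) of H2A.Z peaks, although that class is 1.63% of the sequenced bases. Over 5 kb lay 51.0% of ATACseq and 56.9% of H2A.Z peaks. In WT, 47.0% of ATACseq and 33.0% of H2A.Z peaks lay under 1 kb. By position, 20.4% of Uhrf1hepKO ATACseq peaks were centred in an exon, 26.2% in an intron and 53.4% between genes, and exonic centres overlapped H2A.Z in 45.6% (43.5 to 47.7), above the 18.6% of intronic and 24.8% of intergenic ones.

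Most open sites without overlap at gene starts still had H2A.Z close by. The median distance from an ATACseq centre to the nearest H2A.Z summit was 368 bp over all peaks. It was 229 bp under 1 kb, with quartiles of 142 and 367 bp, 1156 bp from 1 to 5 kb and 11638 bp over 5 kb, where the lower quartile was 245 bp. Under 1 kb, 84.2% (83.1 to 85.2) of ATACseq centres had a summit within 500 bp, against 45.6% (42.0 to 49.2) from 1 to 5 kb and 31.8% (30.6 to 33.0) over 5 kb. Of the sites over 5 kb from a TSS, 40.2% had a summit within 5 kb. In WT, the medians were 221, 449.5 and 6718 bp.

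The distances peaked between 150 and 250 bp from the centre in every class. Among 50 bp bins of distance, the fullest was 200 to 250 bp under 1 kb, with 15.0% of the peaks, and 150 to 200 bp in both other classes, with 9.00% from 1 to 5 kb and 7.48% over 5 kb. WT peaks had their fullest bins at the same distances. In the orientation of the nearest gene, H2A.Z summits under 1 kb were densest 200 to 250 bp upstream, at 14.3 per 100 ATACseq peaks, and reached 6.97 per 100 at 150 to 200 bp downstream, against a mean of 4.65 per 50 bp bin in the 100 bp about the centre. Over 5 kb the upstream and downstream maxima were alike, 4.72 and 4.15 per 100 peaks, and the mean about the centre was 2.18.

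**Figure D2:**
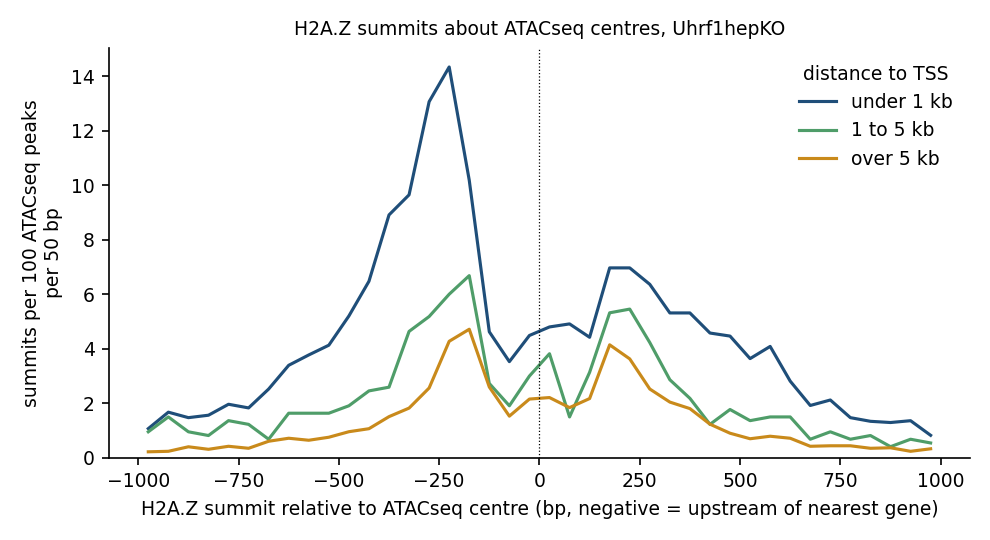
Number of H2A.Z summits per 100 ATACseq peaks in 50 bp bins of position relative to the ATACseq centre, in bp, oriented along the nearest gene, in the Uhrf1hepKO liver. Lines are the 3 classes of distance to the TSS. All have a shoulder on each side and fewer summits between the shoulders, with a small rise about the centre. The upstream shoulder is the higher one under 1 kb, at 14.3 against 6.97 summits.

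Flanking on both sides followed the same order. H2A.Z summits stood within 500 bp on both sides of 36.3% (34.9 to 37.7) of ATACseq centres under 1 kb, of 17.1% (14.5 to 19.9) from 1 to 5 kb and of 10.4% (9.61 to 11.2) over 5 kb. Under 1 kb, 37.2% of centres had H2A.Z upstream only and 10.7% downstream only. Over 5 kb these shares were 11.1% and 10.3%, with intervals that met. Where both sides were occupied, the summits were 462.5 bp apart in the median under 1 kb, 420 bp from 1 to 5 kb and 426 bp over 5 kb. The one-sided pattern was present wherever the centre lay. For centres more than 100 bp upstream of the TSS, 45.2% had the upstream summit only and 9.46% the downstream one only, and for centres more than 100 bp downstream these were 31.0% and 13.7%. H2A.Z summits themselves, relative to the TSS, were densest from 300 to 200 bp upstream (13.3% of those under 1 kb) and from 100 to 200 bp downstream (13.3%), and sparse in the 100 bp before the TSS (1.79%), the bin that held most ATACseq centres (31.9%).

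Overlap by 1 bp moved with the width of the ATACseq peak, and proximity did so much less. Under 1 kb, overlap rose from 13.7% (11.2 to 16.7) of the narrowest of 4 width groups, 110 to 144 bp, to 68.5% (66.1 to 70.7) of the widest, 330 to 4553 bp. The share with a summit within 500 bp was 80.6% and 86.9% in the same groups. Over 5 kb, overlap was 5.49% in the narrowest and 33.5% in the widest group, and the share with a summit within 500 bp was 26.4% and 37.9%. Overlapping ATACseq peaks had a median width of 328 bp and the others of 176 bp. Most overlapping peaks, 85.4%, met 1 H2A.Z peak, and 13.2% met 2.

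**Figure D3:**
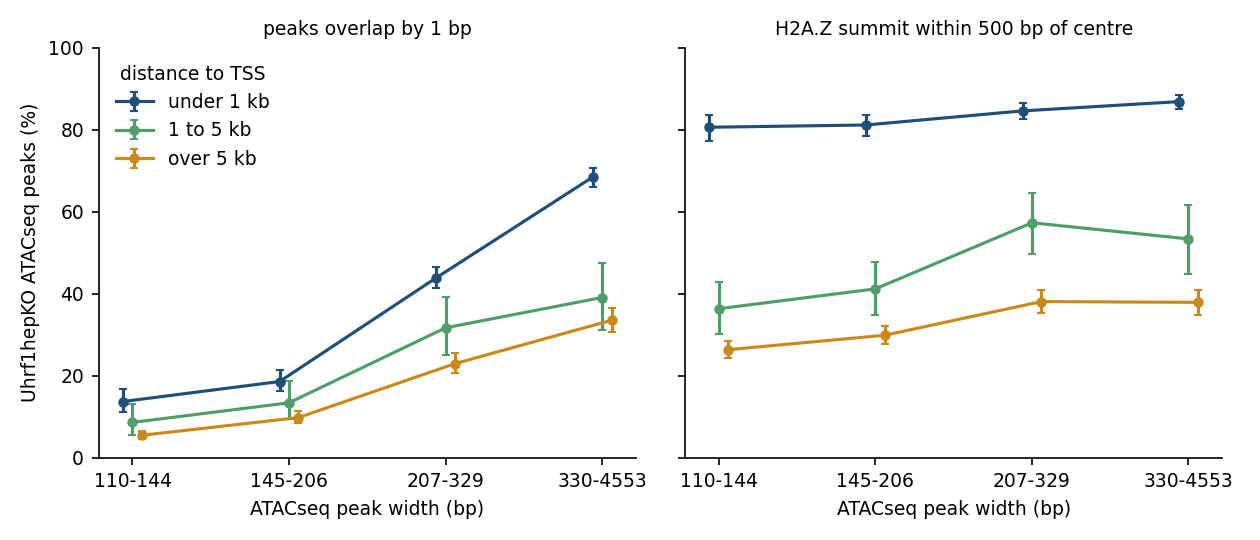
Uhrf1hepKO ATACseq peaks in 4 groups of width (bp), by distance to the TSS, as the share overlapping an H2A.Z peak by 1 bp (left) and the share with an H2A.Z summit within 500 bp of the centre (right). Points are percentages and lines Wilson 95% intervals. Under 1 kb the left share rose from 13.7% to 68.5% and the right share lay between 80.6% and 86.9%.

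Overlap rose with the fold enrichment of both kinds of peak. In 4 groups of H2A.Z fold from low to high, 2.96%, 3.84%, 7.02% and 14.7% of peaks overlapped an ATACseq peak. For 4 groups of ATACseq fold the shares were 18.1%, 26.7%, 31.0% and 34.0%. Within a class the ATACseq shares ranged less, from 39.5% to 44.6% under 1 kb and from 11.0% to 18.2% over 5 kb. The H2A.Z shares ran from 6.87% to 20.2% under 1 kb and from 1.85% to 8.80% over 5 kb.

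Gene starts are rich in H2A.Z to begin with, so the shares were set beside those of the bases of each class. Under 1 kb from a TSS, 28.8% of sequenced bases lay within 500 bp of an H2A.Z summit, and ATACseq centres did so 2.92 times as often. From 1 to 5 kb the bases gave 2.88% and the ratio was 15.8, and over 5 kb they gave 1.03% and the ratio was 30.9. Centres fell inside an H2A.Z peak in 15.4% (14.4 to 16.5) of cases under 1 kb, beside 11.4% of bases, and in 7.32% (6.65 to 8.04) over 5 kb, beside 0.253% of bases. The ratio to the bases of the class was thus largest over 5 kb, while open sites at gene starts were near H2A.Z most often. A ratio has less room to rise where more bases lie near a summit, as under 1 kb. Its order therefore does not rank the classes.

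Among the strongest open sites under 1 kb, Oasl1, an interferon-induced gene, stood apart, with an ATACseq peak of fold 18.6 over H2A.Z of fold 1.57 and 86.8% of its bases repeat-masked. The others were at most 6.35% repeat-masked. Chd6, a chromatin remodeller of the CHD family, had an ATACseq peak of fold 11.2 centred 50 bp upstream of its TSS over an H2A.Z peak of fold 7.20. Med30, a Mediator subunit, had one of fold 9.54 over H2A.Z of fold 10.9. Without overlap, Lztfl1, a regulator of ciliary protein traffic, had an ATACseq peak of fold 13.5 centred in an exon, with the nearest H2A.Z summit 231 bp away at fold 6.27. Dcaf7, a substrate receptor of a ubiquitin ligase, had one of fold 10.1 with a summit 192 bp away at fold 10.2, and Cdc25c, a phosphatase that drives entry into mitosis, one of fold 11.5 with a summit 231 bp away. These promoters lacked overlap and had H2A.Z next to the open site all the same. Each of the 5 also had a WT ATACseq peak.

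High H2A.Z folds were found with and without an open site. Bbx, a transcription factor of the HMG box group, had an H2A.Z peak of fold 17.2 over an ATACseq peak of fold 6.05, and Txndc12, an endoplasmic reticulum thioredoxin, one of fold 17.0 over an ATACseq peak of fold 3.43. Mrps22, a mitochondrial ribosomal protein, had H2A.Z of fold 17.4, and Acad11, an acyl-CoA dehydrogenase, H2A.Z of fold 17.0, while the nearest ATACseq centres were 38269 and 60852 bp away. The H2A.Z peak of highest fold in the list, 17.9, lay 1121 bp beyond the TSS in an intron of Ube2v2, a ubiquitin-conjugating enzyme variant, and was 42955 bp from the nearest ATACseq centre. Near Pdgfra, the receptor that marks stellate cells and fibroblasts, an H2A.Z peak of fold 15.8 lay 164007 bp beyond the TSS.

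Far from genes, the highest ATACseq folds stood over weak H2A.Z or none. The Rab10 site, 199977 bp from the TSS of that gene, reached fold 34.3 over an H2A.Z peak of fold 1.78. A site in an intron of Chl1, a neural adhesion molecule, reached fold 32.1 over 1.82. The site nearest Dpy19l1 reached fold 30.5 over 1.68. The site at -12986 bp from the TSS of Abcb11, the bile salt export pump, had the highest fold of the list, 39.1, and its nearest H2A.Z summit, of fold 10.7, was 12767 bp away at the Abcb11 promoter. Each of these sites was also a WT ATACseq peak. Repeat-masked bases made up 100% of the Rab10, 29.4% of the Chl1, 34.0% of the Dpy19l1 and 3.94% of the Abcb11 peak. The nearest gene only names a site, and no link to that gene was tested. Whether reads from elsewhere were placed at these sites was not tested either. Over 5 kb, 79 ATACseq peaks had a fold of 10 or more, 75 of them had a WT peak, and 18 overlapped H2A.Z. Repeat-masked bases made up 55.8% of these 79 peaks, beside 27.6% of the other peaks over 5 kb.

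Repeated DNA moved with the overlap in both directions. Over 5 kb, 24.98% (23.7 to 26.2) of ATACseq peaks without H2A.Z were mostly repeat-masked, against 5.08% (3.78 to 6.80) of those with it. Of the 119 H2A.Z peaks with a fold under 2, 83 overlapped an ATACseq peak, 69.7% (61.0 to 77.3), and 83.4% of their bases were repeat-masked. Without H2A.Z peaks of fold under 3, a check chosen after seeing the data, the share of all ATACseq peaks with overlap was 26.7%. The part of read placement in repeats was not tested.

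CpG density moved with overlap, and not in one direction at gene starts. Over 4 groups of CpGs per 100 bp of ATACseq peak from low to high, 7.11%, 21.1%, 46.9% and 34.6% overlapped H2A.Z. Over 5 kb the shares rose throughout, from 6.61% to 17.5%, 31.0% and 35.2%. Under 1 kb the middle groups reached 51.0% and 53.4% and the most CpG-dense group stood at 35.2% (33.3 to 37.2). Density is per base, and overlapping peaks under 1 kb were wider, 358 against 207 bp in the median. By number they held more CpGs, a median of 27 against 18 without overlap. The ATACseq peaks held 5.16 CpGs per 100 bp and the H2A.Z peaks 2.31, beside 0.851 over the genome.

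Counted by gene, open promoters nearly always had H2A.Z. Of 20807 protein-coding genes, 24.8% had an ATACseq centre and 45.4% an H2A.Z summit within 1 kb of the TSS. Both were present at 4690 genes (22.5%), ATACseq only at 480 (2.31%), H2A.Z only at 4759 (22.9%) and neither at 10878 (52.3%). Thus 90.7% (89.9 to 91.5) of genes with an ATACseq peak had H2A.Z, and 49.6% (48.6 to 50.6) of genes with H2A.Z had an ATACseq peak. In WT, 92.7% (92.0 to 93.4) of genes with an ATACseq peak had H2A.Z. Genes with a shared promoter share these peaks and are not independent.

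The exception was the genes with few CpGs at the TSS. In the lowest of 4 groups, with 0 to 11 CpGs within 500 bp, 76 of 4897 genes had an ATACseq peak and 16 of these had H2A.Z, 21.1% (13.4 to 31.5). In the other groups the share was 90.4% (87.99 to 92.3), 94.0% (92.9 to 94.97) and 90.1% (88.8 to 91.2). Over all genes of the 4 groups, open or not, H2A.Z stood at 5.47%, 32.4%, 70.9% and 71.2%. The lowest group thus had the least H2A.Z with or without an open site. In WT the lowest group gave 24 of 60 genes.

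**Figure D4:**
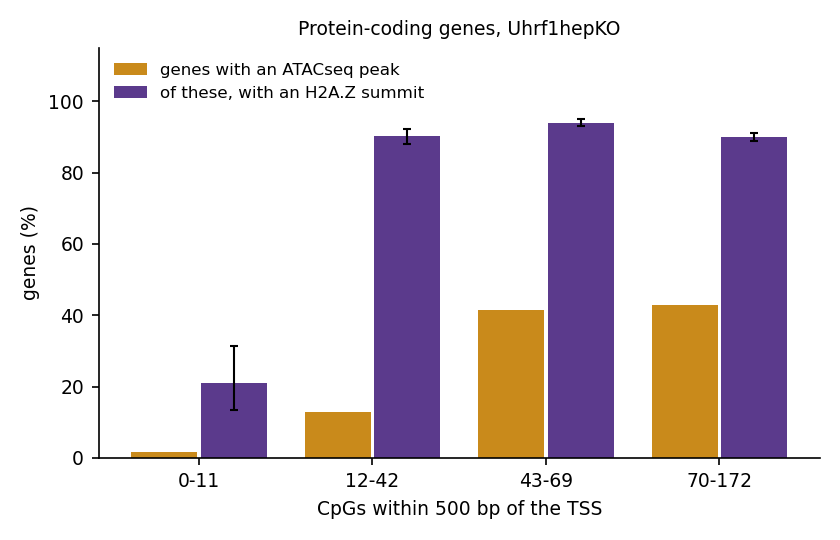
Protein-coding genes in 4 groups of CpG number within 500 bp of the TSS, with the percentage that had a Uhrf1hepKO ATACseq peak within 1 kb and, of these, the percentage with an H2A.Z summit within 1 kb. Error lines are Wilson 95% intervals. H2A.Z accompanied 21.1% of open genes in the lowest group and 90.1% to 94.0% in the others.

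The hepatocyte marker genes that were open stood on the side without H2A.Z. Of 20 hepatocyte markers, 6 had an ATACseq peak only, 2 had H2A.Z only and none had both, for which the Wilson interval reaches 16.1%. Over all genes 2.31% had an ATACseq peak only and 22.5% both. All 6 are named here after their values were seen. Alb had an ATACseq peak of fold 4.18 centred 113 bp upstream of the TSS, and the nearest H2A.Z summit was 10500 bp from the TSS. Fgg and Fga, fibrinogen chains made by hepatocytes, had ATACseq peaks of fold 4.26 and 3.62, 8 and 69 bp downstream of the TSS, with H2A.Z 45815 and 27463 bp away. Cyp7a1, the rate-limiting enzyme of bile acid synthesis, had one of fold 3.601 with H2A.Z 12527 bp away. Pck1, an enzyme of gluconeogenesis, had one of fold 3.59 with H2A.Z 17067 bp away, and Trf, which encodes transferrin, one of fold 3.76 with H2A.Z 4665 bp away. These 6 genes had a median of 11 CpGs within 500 bp of the TSS, against 66 for genes with both peaks. All 480 genes with an ATACseq peak only had a median of 67, so a low CpG number did not mark that class as a whole.

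Not all of these sites were called in the WT liver. Fgg and Pck1 had an ATACseq peak only in WT as well, while Alb, Fga, Cyp7a1 and Trf had neither peak there. In WT 3 of the 20 markers had an ATACseq peak, the third being Hpx, a heme-binding plasma protein, with fold 4.43. In Uhrf1hepKO, Hpx had H2A.Z of fold 3.95 and no ATACseq peak. Apoh, a plasma apolipoprotein, had H2A.Z only in both livers.

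Hepatocyte transcription factors had no promoter with both peaks in Uhrf1hepKO either. Of 23, 3 had an ATACseq peak only, 11 had H2A.Z only and none had both, beside 22.9% of all genes with H2A.Z only. Cebpa had an ATACseq peak of fold 4.39 centred 85 bp upstream of the TSS and its nearest H2A.Z summit, of fold 4.18, was 1022 bp from the TSS, just outside the limit. Nr0b2, the repressor SHP in bile acid feedback, had an ATACseq peak of fold 3.45 with H2A.Z 7066 bp away, and Ppara, the fatty acid sensor, one of fold 3.35 with H2A.Z 67411 bp away. None of the 3 had either peak in WT. Their median was 73 CpGs within 500 bp of the TSS, but the Nr0b2 peak itself held 1 CpG in 111 bp, against 31 in the Cebpa and 53 in the Ppara peak. Among those with H2A.Z only were Nr1h3, the oxysterol receptor LXR alpha, with fold 6.97 and 7.07 in WT, and Onecut2, with fold 7.44, which in WT had both, with an ATACseq fold of 3.91 and an H2A.Z fold of 5.61. Of the study's liver-enriched genes, 17 of 256 had both peaks, 18 ATACseq only and 65 H2A.Z only. H2A.Z accompanied 48.6% (33.0 to 64.4) of the 35 that were open, beside 90.7% of all open genes, and 59.4% (42.3 to 74.5) in WT. By CpG group the difference was not uniform. In the lowest group 3 of 12 open liver-enriched genes had H2A.Z, beside 21.1% of all open genes there. In the second group 7 of 13 did, 53.8% (29.1 to 76.8), beside 90.4%. In the third group 3 of 5 did, 60% (23.1 to 88.2), beside 94.0%. In the last group 4 of 5 did, 80% (37.6 to 96.4), an interval that holds the 90.1% of all open genes there. Each of these 2 shares rests on 5 genes. Among the liver-enriched genes, Dhodh, an enzyme of pyrimidine synthesis, had both, with folds of 4.66 and 11.2. Crp, an acute-phase protein, and Abcb11 had H2A.Z only, each of fold 10.7, and Dcxr, a carbonyl reductase, had an ATACseq peak only, of fold 5.30.

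**Figure D5:**
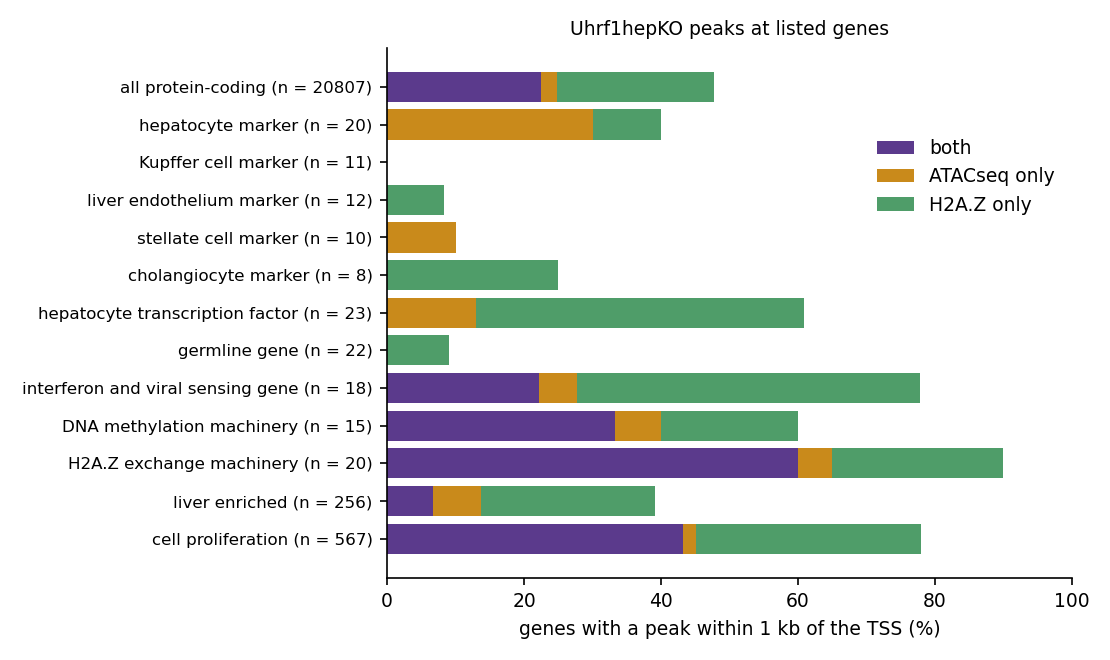
Percentage of genes in each list with Uhrf1hepKO peaks of both kinds, ATACseq only or H2A.Z only within 1 kb of the TSS, with the number of genes measured in brackets. Of 20 hepatocyte markers 6 were ATACseq only and none had both, while 12 of 20 genes of the H2A.Z exchange machinery had both.

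Both peaks at one promoter were frequent among proliferation genes. Of the study's 567 cell proliferation genes, 245 (43.2%) had both peaks, 11 (1.94%) ATACseq only and 186 (32.8%) H2A.Z only. Over all genes these shares were 22.5%, 2.31% and 22.9%. H2A.Z accompanied 95.7% (92.5 to 97.6) of the open ones, beside 90.7% of all open genes. In WT these shares were 95.3% (92.2 to 97.3) and 92.7%. From the second to the last CpG group, H2A.Z accompanied 100%, 96.6% and 94.0% of open proliferation genes, beside 90.4%, 94.0% and 90.1% of all open genes. The study drew this list from chromatin states that the WT libraries helped to define, so neither its peaks nor their pairing are independent of it. Trp53bp1 had an ATACseq peak of fold 9.81 and H2A.Z of fold 13.2, and 8.58 and 12.7 in WT. Mre11a, a nuclease of double-strand break repair, had folds of 9.07 and 8.83. Fan1, a nuclease of DNA crosslink repair, had H2A.Z of fold 15.6 and no ATACseq peak. Ube2c, which serves the anaphase-promoting complex, and Fam83d, a spindle protein, had ATACseq peaks of fold 5.81 and 6.55 and no H2A.Z in either liver.

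Of 20 genes of the H2A.Z exchange machinery, 12 had both peaks, 60% (38.7 to 78.1) beside 22.5% of all genes, 1 had ATACseq only and 5 had H2A.Z only. H2afv, which encodes an H2A.Z protein, had an ATACseq peak of fold 8.09 and H2A.Z of fold 8.60, Ruvbl1 had 6.69 and 10.9, and Anp32e, a chaperone that removes H2A.Z, 5.48 and 7.44. Ep400, the ATPase of the TIP60/EP400 complex, had an ATACseq peak of fold 4.61 and its nearest H2A.Z summit 10087 bp away, while WT had both. Actr6, a SRCAP subunit, had H2A.Z of fold 11.2 and no ATACseq peak, while WT had both.

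Of 15 genes of DNA methylation, 5 had both peaks, 1 ATACseq only and 3 H2A.Z only. The 33.3% (15.2 to 58.3) with both has an interval that holds the 22.5% of all genes. Uhrf2, the relative of Uhrf1, had folds of 5.21 and 5.35, and Hells, a remodeller needed for DNA methylation, 4.74 and 8.37, where WT had H2A.Z only. Mbd3, a subunit of the NuRD complex, had an ATACseq peak of fold 5.10 and no H2A.Z, where WT had both. Uhrf1 itself had an ATACseq peak of fold 4.70 centred 961 bp downstream of its TSS and an H2A.Z peak of fold 6.04 with its summit 216 bp upstream. In WT the folds were 3.96 and 6.58, at 804 bp downstream and 211 bp upstream. Peaks near the start of the gene do not check the deletion.

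Immune sensing and germline genes differed in H2A.Z. Of 18 interferon and viral sensing genes, 4 had both peaks, 1 ATACseq only and 9 H2A.Z only, the last being 50% (29.03 to 70.97) beside 22.9% of all genes. Ifih1, the RNA sensor MDA5, had folds of 4.85 and 9.06, and Mavs, its adaptor, 4.25 and 6.74. Ifit3, an interferon-induced gene, and Tlr3, an RNA sensor, had H2A.Z of fold 10.2 each and no ATACseq peak in either liver. Stat2, which carries the interferon signal, had an ATACseq peak of fold 4.82 and no H2A.Z, where WT had both. Of 22 germline genes, which DNA methylation silences in somatic cells, none had an ATACseq peak, for which the Wilson interval reaches 14.9% beside 24.8% of all genes. Tuba3b and Dazl had H2A.Z, of fold 8.83 and 5.58, which is 9.09% (2.53 to 27.8) of the list beside 45.4% of all genes. Their summits lay 949 and 967 bp downstream of the TSS, near the 1 kb limit. Both genes had H2A.Z only in WT as well.

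The genes shown as examples in the study ranged from both marks at one promoter to none. At the divergent promoter of Fbxo48 and the noncoding Eldr, an ATACseq peak of fold 4.92 was centred 88 bp upstream of Fbxo48 and the H2A.Z summit, of fold 8.83, stood at -363 bp from the same TSS. In WT the H2A.Z summit, of fold 5.61, stood 144 bp downstream of the Fbxo48 TSS. For Fbp1, a gluconeogenic enzyme, the nearest ATACseq centre lay at -20021 bp and the nearest H2A.Z summit at -5086 bp from the TSS. Hoxc10 and Hoxc11, patterning genes of the embryo, had their nearest H2A.Z summits 123534 and 135903 bp away.

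Sites called only in the Uhrf1hepKO liver had less H2A.Z than sites called in both. Of the Uhrf1hepKO ATACseq peaks, 6406 (60.2%) overlapped a WT ATACseq peak and 35.95% (34.8 to 37.1) of these overlapped Uhrf1hepKO H2A.Z, against 14.5% (13.5 to 15.6) of the 4230 others. The others were narrower, 156 against 256 bp in the median. Within 500 bp of a summit lay 69.03% of the shared and 33.2% of the other peaks. The WT list gave the same order, 40.7% (39.5 to 41.9) for shared and 27.8% (26.4 to 29.2) for other peaks. Peaks over 5 kb without a WT peak, 3084 in number, overlapped H2A.Z in 9.95%, and 86.7% of them had H2A.Z in neither liver.

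Across chromosomes the overlap ran from 14.6% (12.5 to 17.1) on chromosome 14 to 36.6% (32.6 to 40.8) on chromosome 9. From 3 to 8 Mb of chromosome 14 lay 519 ATACseq peaks, 4.88% of the list, of which 8 overlapped H2A.Z, 1.54% (0.783 to 3.01). Repeat-masked bases made up 55.3% of these peaks, and WT had 379 there, with 7 overlaps. Without this stretch the share of all peaks was 28.8% and the share over 5 kb 16.3%.

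Some motifs differed in share between sites with and without H2A.Z overlap and others did not, and the direction could depend on the distance to the TSS. Windows of 200 bp about ATACseq centres and H2A.Z summits were searched on both strands for 13 motifs, of which those below are given. The long CTCF motif stood in 6.41% (5.74 to 7.16) of ATACseq peaks over 5 kb without H2A.Z overlap and in 3.995% (2.86 to 5.56) of those with it, beside 0.0960% of genome windows. At H2A.Z summits over 5 kb without ATACseq overlap it stood in 0.0667%. GGGCGG, bound by SP factors, stood in 61.8% (59.9 to 63.7) of ATACseq peaks under 1 kb without overlap and in 45.5% (43.3 to 47.7) of those with it, beside 40.7% of windows at all coding TSSs and 2.01% of genome windows. Over 5 kb the order was the opposite, 7.63% (6.90 to 8.43) without and 16.7% (14.3 to 19.4) with overlap. CCGGAAG, bound by ETS factors, stood in 17.3% and 13.4% of the same peaks, beside 9.78% at all TSSs, and over 5 kb in 1.35% without and 3.995% with overlap. TGTTTAC, bound by FOXA factors, differed little over 5 kb, at 3.83% without and 3.995% with overlap, beside 2.98% of genome windows. The same held over 5 kb for CAAAGTCCA, bound by HNF4A, at 0.978% and 0.969%, beside 0.257% of genome windows. AAGATGGC, bound by YY1, stood at 1.37% and 1.45%, beside 1.77%, and TGANTCA, bound by AP-1, at 6.43% and 5.93%, beside 5.96%. GGGCGG can lie within other GC-rich motifs, and a match is letters only, not binding.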

How the data were processed

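ATACseq and H2A.Z ChIPseq were analysed from the peak lists of WT and Uhrf1hepKO liver, 1 library per assay and genotype. Per the labels and methods, the authors trimmed reads with Trimmomatic, checked them with FastQC 0.11.5, aligned with BWA to GRCm38.p4, used Picard for sorting, and called peaks with MACS2, with 1 deposited list per library. The methods name broad peaks with a paired-end setting for ATACseq but describe its reads as single-end, which could bear on peak widths and overlaps. The MACS2 version, the peak mode for H2A.Z, a control library and a shift of ATACseq reads are not given in the sources used here. Each deposited row holds a score (10 times the −log10 q-value, for display), a fold enrichment as a ratio over local background, and −log10 p- and q-values, and the authors' H2A.Z rows also hold the summit offset. These deposited values are not scaled between libraries and folds were not compared across lists. The largest q was 0.0993 for Uhrf1hepKO ATACseq and 0.0489 for H2A.Z.

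Peaks on chromosomes 1 to 19 were used, with GENCODE vM21 genes and the RefSeq FASTA of GRCm38, in which lower case stands for repeat-masked sequence. Distances run from ATACseq centres or H2A.Z summits to the 5′ end of protein-coding genes. Overlap needed 1 bp. Named peaks are the highest by fold (3 ATACseq, 2 H2A.Z) in each of 6 cells of class by overlap. Named genes are up to 3 with both, 2 H2A.Z only and 2 ATACseq only per list, and 6 genes the study shows or deletes. Further genes are said to be chosen after their values were seen, as are Ppara, Apoa1, Ttr and Cps1. There were 12 gene lists, 10 written by hand and 2 from the study's tables, of which the liver-enriched one held 258 symbols, more than the study's text counts, with 256 found. Members and lists were chosen with earlier results of these data known. Intervals are Wilson 95%. Versions were pandas 2.3.3, numpy 2.4.6, matplotlib 3.10.9, Python 3.11.15 and scipy 1.17.1. The overlap and distance functions were tested on simulated intervals. Symbols not found in the annotation were left out.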

Additional observations from a re-analysis of the deposited data

Results flagged for a closer look

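Some peaks lay on sequences outside chromosomes 1 to 19, which no comparison above used, and on some of these sequences were more numerous in Uhrf1hepKO than in the WT control. On unplaced scaffolds and patches there were 205 Uhrf1hepKO ATACseq peaks against 173 in WT, and 256 H2A.Z peaks against 252. On chromosome Y there were 28 ATACseq peaks against 26, and 27 H2A.Z peaks against 25. Chromosome X went the other way, with 100 ATACseq peaks against 117 and 708 H2A.Z peaks against 760, and mitochondrial DNA had 3 ATACseq peaks in each. With 1 library per assay and genotype these differences were not tested.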

How the results depend on the processing

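Of 56 values under 9 alternatives fixed at the outset, 24 stayed within the interval of the main value. So did 8 of 12 under 2 alternatives chosen after seeing the data. The rest left that interval, and the order of the classes beyond 1 kb depended on the annotation. Requiring 50% of the shorter peak gave overlaps of 16.7% of ATACseq and 4.12% of H2A.Z peaks, and of 25.5%, 13.6% and 9.77% by class of ATACseq peak from under 1 kb to over 5 kb. Peaks at or above the median fold gave 6.80% of H2A.Z peaks overlapping, 38.9%, 16.9% and 13.4% by class, and 54.8% of ATACseq and 43.1% of H2A.Z peaks under 1 kb. The TSS of every coding transcript put 47.5% and 38.7% under 1 kb and gave overlaps of 13.7% from 1 to 5 kb and 14.2% over 5 kb, which turned the order of these classes. The TSS of genes of any biotype put 46.2% and 37.5% under 1 kb, with 13.6% overlap over 5 kb. ATACseq peaks of q up to 0.05 gave 28.4% and 6.81% overlap, a median distance of 337 bp and 44.2% under 1 kb. Leaving out the start of chromosome 14 gave 28.8% overlap, 16.3% over 5 kb, 333 bp and 43.995% under 1 kb. Leaving out mostly repeat-masked ATACseq peaks gave 30.7% and 7.08% overlap, 18.5% over 5 kb, 295 bp and 47.8% under 1 kb. H2A.Z centres in place of summits gave 421 bp. Of the added checks, H2A.Z peaks of fold 3 or more gave 14.3% over 5 kb, and 200 bp windows gave 26.4%, 38.5% under 1 kb and 17.2% over 5 kb. Beyond each alternative's own construction, the causes were not tested.

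No paired analysis was possible because each genotype had 1 library per assay and no result comes from a test. For the same reason the spread between livers is unknown, depth is unknown without reads, and a missing peak is not a missing mark.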
